A study of Raphidocelis subcapitata with 45 samples.

Results

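The step from 1960 to 4900 µg/L sertraline was examined in Raphidocelis subcapitata by setting the 5 libraries at 4900 µg/L against the 5 libraries at 1960 µg/L, without the control in the test. These are 10 of the 41 libraries with values, chosen by the concentration in their labels. R. subcapitata is a single-celled freshwater green alga used as a test species in ecotoxicology. Both groups came from an exponentially growing culture of stock labelled Carolina Biological, kept in Woods Hole MBL medium under constant light and exposed for 24 h to sertraline hydrochloride at these nominal concentrations, which differ by a factor of 2.5, in medium that also carried solvent. The other groups used below had the solvent alone (control, 5 libraries) or sertraline at 50, 125, 314 or 784 µg/L (5 libraries each) or at 12249 or 30623 µg/L (3 libraries each). RNA came from homogenates pooled over plates, and no separate cultures are named, so the spread between libraries may be technical. The series' title speaks of a burst of reactive oxygen species. The comparison asks how far transcript levels moved within this concentration interval.

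Sertraline is an antidepressant that blocks the serotonin transporter of animal nerve cells. It is also a cationic amphiphilic molecule, a kind that in animal cells and yeast gathers in membranes and acidic compartments. Transcript profiles of an alga at neighbouring concentrations show which genes respond at lower, which only at higher concentrations and which turn back. The deposited table names genes by identifier only and does not pair them with products, so no pathway or function is given here, no sequence is shown, and 2 genes that rose and 2 that fell are named.

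The values are the authors' normalised expression on a log scale, read as log2, for 7291 genes. Read depth is unknown. Library medians were 4.62 to 4.66 in the 1960 µg/L group and 4.55 to 4.59 in the 4900 µg/L group. Libraries C and D at 30623 µg/L stood apart from all others in the spread of values over genes, with an SD of 1.16 and 1.24, against 1.36 to 1.43 at 1960, 1.37 to 1.51 at 4900 and 1.49 to 1.53 at 12249 µg/L. Because every library is scaled, a change in total RNA per cell or in cell number cannot be seen in these values.

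Between 1960 and 4900 µg/L, 822 genes differed (11.3% of 7291) at an adjusted p under 0.05 in limma's moderated test, with p-values adjusted by the Benjamini-Hochberg method over all genes. Of these, 375 were higher at 4900 µg/L (5.14%) and 447 were lower (6.13%). The changes were of similar size in both directions. Among the genes that rose the median log2 change was 0.90 (quartiles 0.70 and 1.15), a 1.86-fold rise, and among those that fell it was -0.90 (quartiles -1.10 and -0.74). Over all genes the median was -0.03, with quartiles at -0.30 and 0.24. Among the called genes, 304 (4.17% of all) moved by 1 or more on the log2 scale, 148 upwards and 156 downwards. The majority of falls was not kept after each library was centred by its median difference from the gene means, which gave 417 higher and 417 lower.

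In 645 genes (8.85%) the 5 libraries at 4900 µg/L all lay on one side of the 5 at 1960 µg/L, 288 of them above (3.95%) and 357 below (4.90%). Among the called genes 226 lay wholly above and 290 wholly below, and in the other 306 the groups overlapped. The median standard error of a log2 change was 0.24, and the smallest changes called were 0.40 upwards and 0.41 downwards. Smaller changes were not called in any gene. Larger ones were not called in some genes, with standard errors above or below the median. The 0.40 and 0.41 are therefore not a limit of detection for genes in general. An unadjusted p under 0.05 was found for 1826 genes. The count of 822 became 1567 (21.5%) when all 41 libraries shared one estimate of the spread, and that fit held 821 of the 822 in the same direction.

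**Figure D1:**
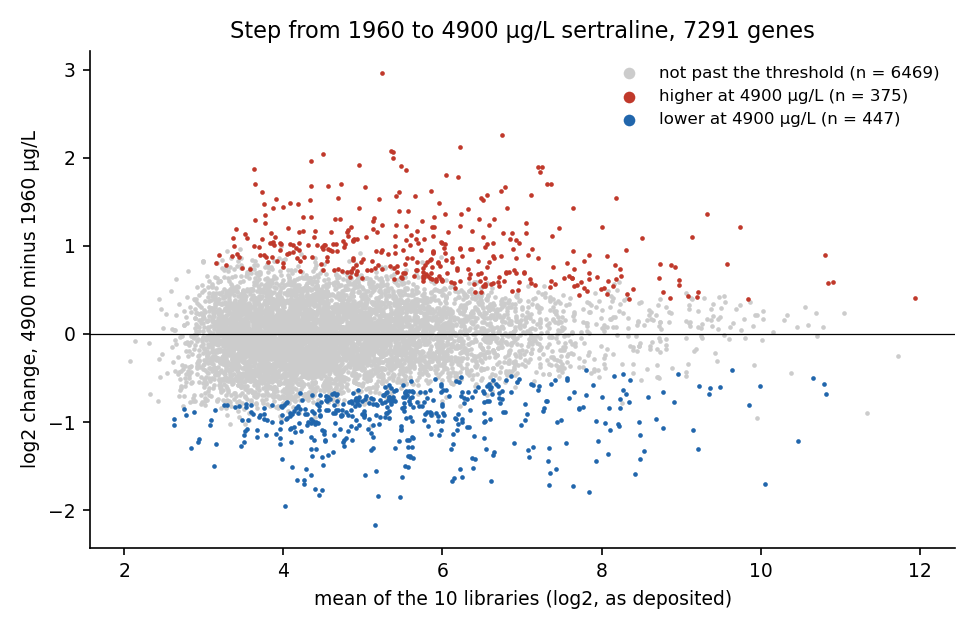
Each point is a gene, with its mean over the 10 libraries on the x axis (log2, as deposited) and its log2 change from 1960 to 4900 µg/L on the y axis. The 375 genes called higher and the 447 called lower spread over the whole range of levels, and the highest point stands at 2.96.

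The gene with the largest rise was Rsub_12517. Its libraries A to E stood at 3.73, 3.77, 4.04, 3.36 and 3.89 (log2) at 1960 µg/L, and the same letters at 4900 µg/L stood at 6.11, 6.17, 7.22, 7.11 and 6.98. The groups were far apart, and A and B were the lower libraries at 4900 µg/L. The rise was 7.78-fold, a log2 change of 2.96 ± 0.23 (SE, limma adjusted p = 1.60e-08). The gene was low in the control (2.51 ± 0.07, SD, n = 5) and also in the 784 µg/L group (2.36 ± 0.17, SD, n = 5). At 1960 µg/L it was already 1.24 ± 0.29 (SE) above the control (limma adjusted p = 0.000925, fit of all 41 libraries). In the same fit it was 1.40 ± 0.29 (SE) above the 784 µg/L group (limma adjusted p = 0.000183). In libraries outside the step it was 4.62 ± 0.34 (SE) higher at 12249 than at 784 µg/L (limma adjusted p = 2.92e-16), and lower at 30623 than at 12249 µg/L by a log2 change of -1.38 ± 0.38 (SE, limma adjusted p = 0.00490). At 30623 µg/L its 3 libraries ran from 4.31 to 7.09. Library A had the 7.09, and C and D, which stand apart in their spread over genes, had 5.40 and 4.31.

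Rsub_02324 made the second largest rise, and it made it from its control level. Libraries A to E of the 1960 µg/L group stood at 5.68, 5.28, 5.67, 6.17 and 5.32, and those of the 4900 µg/L group at 7.54, 7.41, 8.17, 7.80 and 8.47. No library of one group reached the other. The log2 change was 2.26 ± 0.20 (SE), a 4.78-fold rise (limma adjusted p = 1.15e-07). The control mean was 5.75 ± 0.27 (SD, n = 5) and the highest mean of a lower concentration was 6.33 ± 0.13 (SD, n = 5) at 314 µg/L. In the group mean its rise did not last to the top concentration. It was 2.05 ± 0.22 (SE) higher at 12249 than at 784 µg/L (limma adjusted p = 2.77e-11). At 30623 µg/L it stood at 5.84 ± 0.79 (SD, n = 3), a log2 change of -2.29 ± 0.24 (SE) from 12249 µg/L (limma adjusted p = 2.02e-09). Library A of 30623 µg/L had 6.75, above the highest library at 314 µg/L (6.51). Libraries C and D, which stand apart in their spread over genes, had 5.42 and 5.34.

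Rsub_10831 fell most. Its libraries A to E had 6.58, 6.53, 5.96, 5.94 and 6.17 before the step (1960 µg/L) and 4.11, 4.33, 3.78, 3.77 and 4.33 after it. The 4900 µg/L libraries were close together and far below the others. The log2 change was -2.17 ± 0.21 (SE), a 4.51-fold fall (limma adjusted p = 2.18e-07). At 12249 µg/L its mean was 4.06 ± 0.27 (SD, n = 3), beside 4.06 ± 0.28 (SD, n = 5) at 4900 µg/L, and the log2 change between them was 0.00 ± 0.18 (SE, limma adjusted p = 1.00, fit of all 41 libraries). It was 0.78 ± 0.18 (SE) higher at 30623 than at 12249 µg/L (limma adjusted p = 0.000945). Of the 30623 µg/L libraries A had 4.35, close to the 3.79 to 4.33 at 12249 µg/L, and C and D, which stand apart in their spread over genes, had 4.96 and 5.23.

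The fall of Rsub_00004 was a return from a peak. Libraries A to E had 4.79, 4.89, 5.09, 4.68 and 5.57 at 1960 µg/L, above every library at the other concentrations, and 4.04, 3.91, 2.08, 2.84 and 2.37 at 4900 µg/L. The groups did not overlap, and the 4900 µg/L libraries spread widely, with an SD of 0.89 against 0.35 at 1960 µg/L. The log2 change was -1.96 ± 0.33 (SE, limma adjusted p = 0.000295). The gene stood at 3.72 ± 0.26 (SD, n = 5) in the control. Its mean was 2.96 ± 0.27 (SD, n = 5) in the 784 µg/L group and 2.37 ± 0.19 (SD, n = 3) in the 12249 µg/L group, and their difference of -0.59 ± 0.28 (SE) missed the threshold (limma adjusted p = 0.0717).

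**Figure D2:**
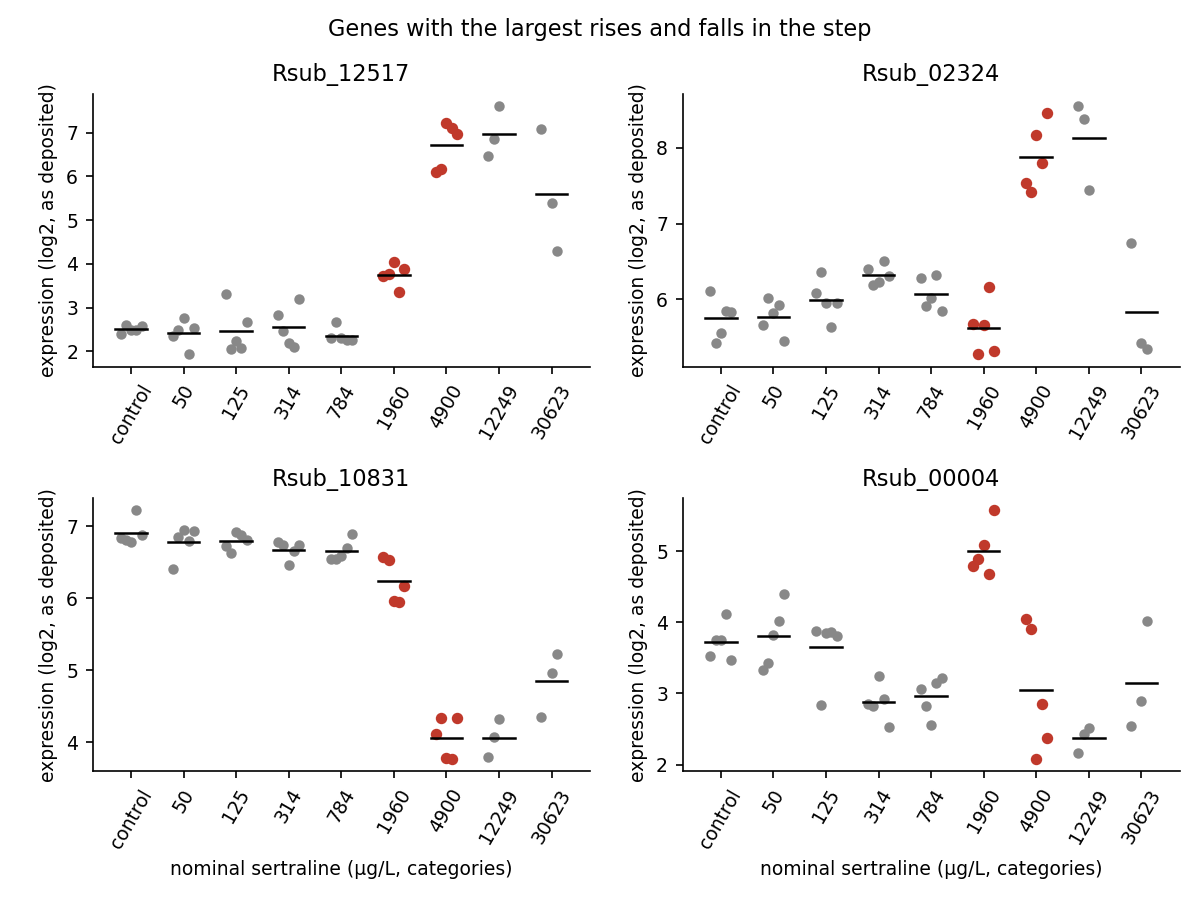
Expression (log2, as deposited) of the 4 named genes against nominal sertraline concentration, drawn as categories, with 1 point per library, bars at group means, and the 1960 and 4900 µg/L libraries in red. Rsub_12517 and Rsub_02324 are high at 4900 and 12249 µg/L, Rsub_10831 is low there, and Rsub_00004 peaks at 1960 µg/L.

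The 4900 µg/L libraries did not all move equally far. The first principal component of the 10 libraries held 35.0% of the variance. On it the score was -18.8 ± 1.59 (SD, n = 5) at 1960 µg/L and 18.8 ± 16.5 (SD, n = 5) at 4900 µg/L. At 4900 µg/L A scored -2.37, B 5.35, C 28.2, D 26.1 and E 36.8. A and B were nearest to the 1960 µg/L libraries, which ended at -16.2, and the groups did not overlap. Gene by gene the median SD was 0.36 at 4900 against 0.32 at 1960 µg/L. The SD was larger at 4900 µg/L in 4128 of the 7291 genes (56.6%). That count was 3685 without A and 3786 without B of 4900 µg/L, both close to an even split of the genes. It was 4108 without C, 4152 without D and 4066 without E, so it depends on A and B.

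To see the step in single libraries, genes were called without one library and that library was then set against the mean of the opposite group. The 5 libraries of that opposite group did take part in the calls, so part of each difference is fixed by the choice of genes and the values are a description. For the left-out libraries at 4900 µg/L the median log2 change over the genes called higher was 0.34 for A, 0.48 for B, 1.22 for C, 1.12 for D and 1.35 for E. Over the genes called lower it was -0.41 for A, -0.56 for B, -0.97 for C, -1.03 for D and -1.08 for E. At 1960 µg/L the left-out libraries gave 0.81 to 0.94 and -1.01 to -0.78, a narrower range. Set instead against the 784 µg/L mean, which had no part in the calls, the left-out libraries at 4900 µg/L had medians of 0.32 for A, 0.45 for B, 1.25 for C, 1.14 for D and 1.38 for E over the genes called higher. Over those called lower they had -0.29, -0.52, -0.88, -0.997 and -1.10. The left-out 1960 µg/L libraries lay between 0.04 and 0.11 and between -0.12 and 0.03 on this scale. Against the opposite group, over all genes, the left-out medians lay between -0.04 and -0.01. In A, the least moved library, 82.2% of the genes called higher without it and 80.4% of those called lower had the called sign. Without A the step had 1134 genes, and without C, the setting with the fewest, 578.

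**Figure D3:**
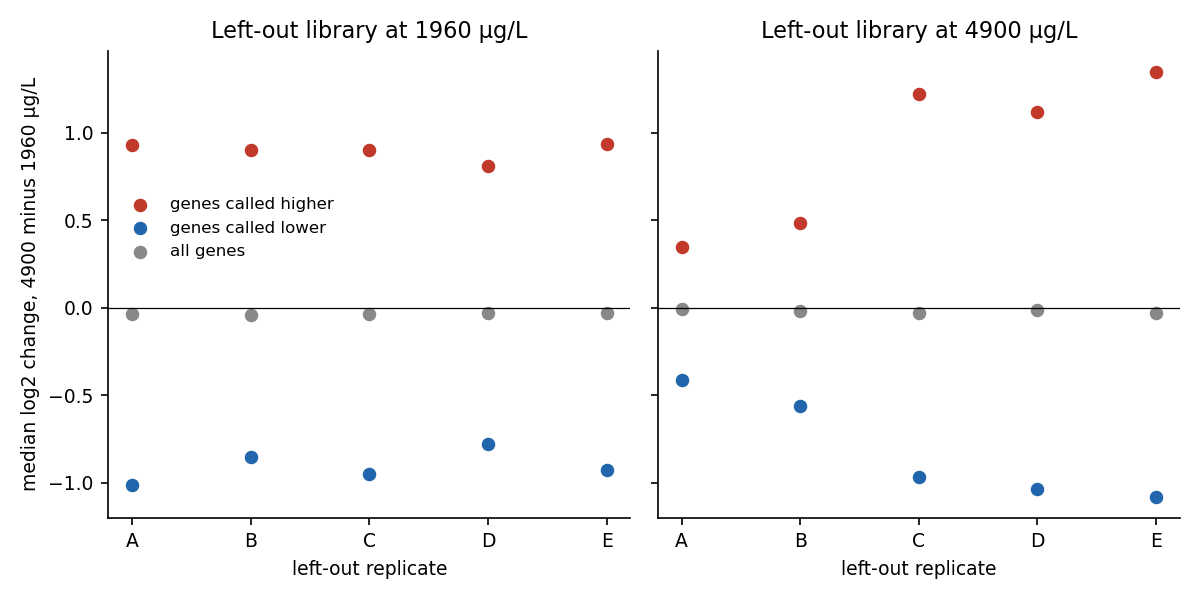
Median log2 change from 1960 to 4900 µg/L shown by each left-out library, over the genes called higher (red) or lower (blue) from the other 9 libraries and over all genes (grey). At 4900 µg/L, A (0.34 and -0.41) and B (0.48 and -0.56) lie nearer to 0 than C, D and E, while the 1960 µg/L libraries lie close together.

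As sets, the genes of the step stood near their control level at every lower concentration. Relative to the control mean, the median of the 375 genes that rose ran from -0.05 to 0.05 in the 25 libraries from control to 784 µg/L and from -0.08 to -0.01 in those at 1960 µg/L. At 4900 µg/L it was 0.45 for A, 0.61 for B, 1.03 for C, 0.96 for D and 1.18 for E, so that every library had left the earlier range. The median of the 447 genes that fell ran from -0.10 to 0.04 up to 784 µg/L and from 0.02 to 0.16 in the 1960 µg/L libraries. At 4900 µg/L it was -0.52 for A, -0.61 for B, -0.87 for C, -0.95 for D and -1.10 for E. The values at 1960 and 4900 µg/L are those that chose the genes and are given as a description.

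**Figure D4:**
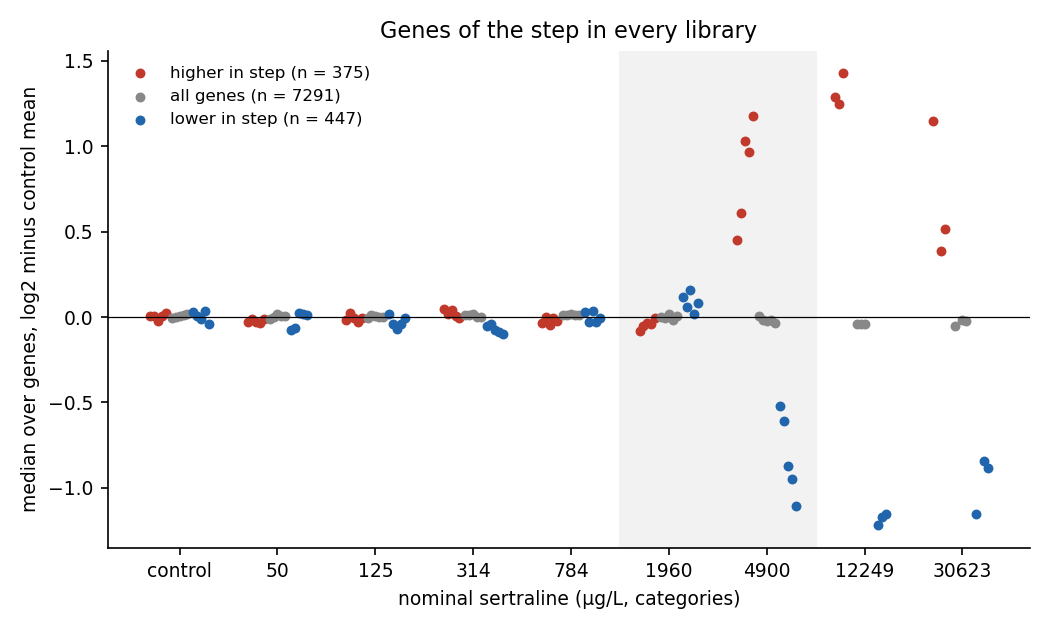
Median log2 difference from the control mean in each library, over the 375 genes called higher in the step (red), the 447 called lower (blue) and all 7291 genes (grey), with the 1960 and 4900 µg/L groups shaded and concentrations drawn as categories. All 3 sets stay near 0 up to 1960 µg/L, the red and blue points part at 4900 and 12249 µg/L, and 2 of the 3 red points at 30623 µg/L (0.38 and 0.51) lie lower than those at 12249 µg/L (1.25 to 1.43).

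Single genes were less uniform than the set medians. Each gene was set against the control in the fit of all 41 libraries, where 22.1% of all genes passed at 1960 µg/L (9.82% higher, 12.3% lower) and 33.6% at 4900 µg/L (14.9% higher, 18.8% lower). These comparisons share the 1960 and 4900 µg/L libraries with the step, so the counts are a description. Of the 375 genes that rose, 260 did not pass against the control at 1960 µg/L, and 219 of those were above the control at 4900 µg/L. A further 49 were already above the control at 1960 µg/L and above it at 4900 µg/L, where their median difference from the control went from 0.81 to 2.01. Another 66 were below the control at 1960 µg/L, and 55 of these did not pass against it at 4900 µg/L, with a median that went from -0.61 to 0.12.

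Of the 447 genes that fell, 261 did not pass against the control at 1960 µg/L, and 219 of the 261 were below it at 4900 µg/L. There were 91 genes below the control at both concentrations, with a median of -0.79 at 1960 and -1.74 at 4900 µg/L. Another 95 were above the control at 1960 µg/L, as Rsub_00004 was. At 4900 µg/L 59 of the 95 did not pass against the control, 18 were still above it and 18 were below it.

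Libraries outside both groups were fitted alone (31 libraries), so that the further course of these genes rests on other measurements. Between 784 µg/L and the control 3.76% of all genes differed. There 7 of the 375 genes that rose were higher (background 1.03%) and 13 lower (2.73%), while of the 447 that fell 16 were higher and 42 lower. Between 12249 and 784 µg/L, where 52.7% of all genes differed (25.4% higher, 27.3% lower), 321 of the 375 were higher (85.6%) and 5 lower. Their median log2 difference was 1.37. Of the 447, 349 were lower (78.1%) and 26 higher, and their median was -1.13. The median over all genes was -0.05. Most of the called genes thus differed in the direction of the step in libraries that took no part in the calls.

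Of the 219 genes that rose, did not pass against the control at 1960 µg/L and were above it at 4900 µg/L, 201 were higher at 12249 than at 784 µg/L, with a median of 1.50. Of the 49 already above the control at 1960 µg/L, 48 were higher, with a median of 2.54. Of the 55 that were below the control at 1960 and did not pass at 4900 µg/L, 41 were higher at 12249 than at 784 µg/L, with a median of 0.67. Of the 59 genes above the control at 1960 µg/L that fell and did not pass at 4900 µg/L, 18 were lower and 9 higher. Their median was -0.30. In this comparison 27.3% of all genes were lower and 25.4% higher, so the 18 of 59 were near the share over all genes. Of the 91 below the control at both, 89 were lower, with a median of -1.75. None of these differences between subsets was tested.

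At the highest concentration many of the rises were smaller. Against 784 µg/L, 222 of the 375 genes that rose were higher at 30623 µg/L (background 27.7%) and 47 lower (29.4%), and their median was 0.70. Against 12249 µg/L, 225 of the 375 were lower at 30623 µg/L (background 17.7%) and 3 higher (15.2%), and their median was -0.66, beside 0.01 over all genes. Their median relative to the control was 1.29 (A), 1.25 (B) and 1.43 (C) at 12249 µg/L, but 1.15 (A), 0.38 (C) and 0.51 (D) at 30623 µg/L. C and D are the libraries with the narrow spread over genes, and the part of this spread in the lower medians was not tested. Without C of 30623 µg/L, 156 of the 375 were lower at 30623 than at 12249 µg/L (41.6%, against 13.0% of all genes). Without D the count was 153 (40.8% against 11.5%) and without A 275 (73.3% against 23.9%). Under quantile scaling it was 159 (42.4% against 15.3%).

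Of the 447 genes that fell, 296 were lower at 30623 than at 784 µg/L (background 29.4%) and 43 higher (27.7%). The median of the 447 was -0.92. Between 30623 and 12249 µg/L 125 of the 447 were higher (28.0%, background 15.2%) and 36 lower (8.05%, background 17.7%). Their median was 0.26. The 125 became 74 without library D of 30623 µg/L (16.6%, against 9.16% of all genes). The count was 77 without A of 12249 µg/L (17.2% against 9.13%) and 154 without A of 30623 µg/L (34.5% against 21.0%). Relative to the control mean, the median of the 447 genes was -1.22, -1.17 and -1.16 in A, B and C at 12249 µg/L, and -1.15 in A, -0.85 in C and -0.88 in D at 30623 µg/L. C and D were again the libraries with the narrow spread over genes, whose part in these values was not tested. Whether the rises and the falls differed in how far they were kept was not tested.

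**Figure D5:**
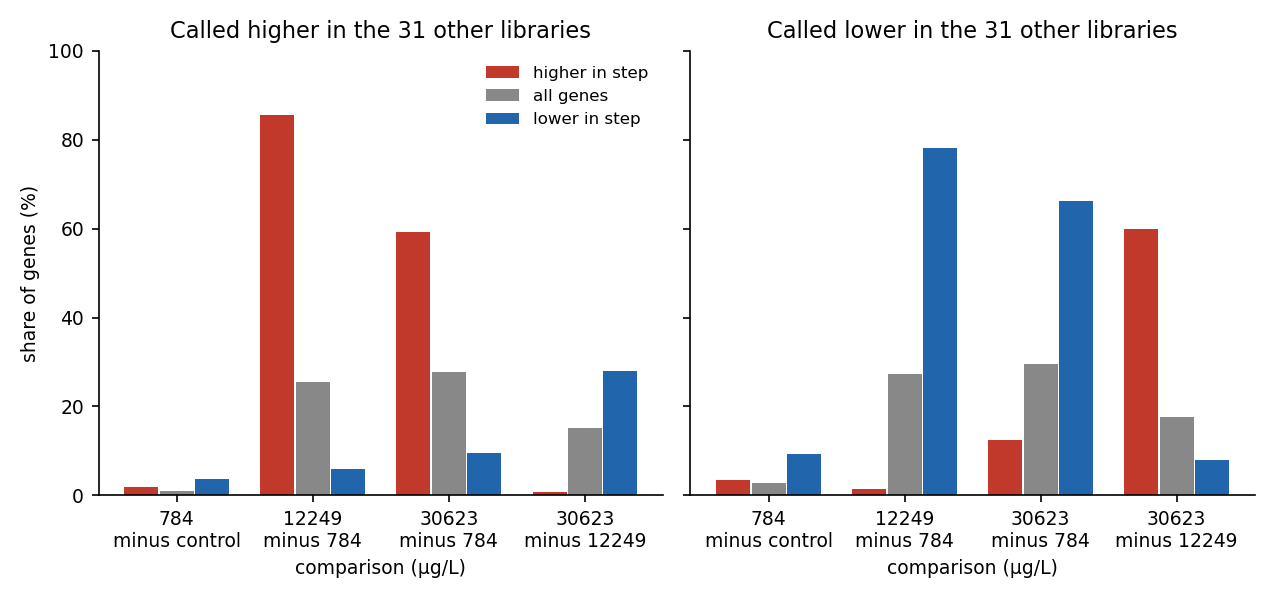
Share of genes (%) called higher (left) or lower (right) in 4 comparisons among the 31 libraries outside the step, for the genes that rose in the step (red), those that fell (blue) and all 7291 genes (grey). At 12249 against 784 µg/L 85.6% of the red set was higher and 78.1% of the blue set lower, against 25.4% and 27.3% of all genes.

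The step was set against its neighbours by testing the difference between steps in the fit of all 41 libraries. The preceding step from 784 to 1960 µg/L covers the same factor of 2.5. The change from 1960 to 4900 µg/L differed from the change from 784 to 1960 µg/L in 1076 genes (14.8%), more positive in 520 (7.13%) and more negative in 556 (7.63%). Among the genes of the step, 197 of the 375 that rose had a more positive change than in the preceding step and 246 of the 447 that fell a more negative one. The genes were chosen on the same libraries, which favours such differences. Their median log2 change in the preceding step was -0.02 for those that rose and 0.03 for those that fell, in a comparison that shares the 1960 µg/L libraries.

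The difference from the following step, from 4900 to 12249 µg/L, passed in 332 genes (4.55%), more positive in 127 (1.74%) and more negative in 205 (2.81%). Without the lower groups and 30623 µg/L in the fit it passed in 31, so this count rests on how the spread is estimated. In the following step, which shares the 4900 µg/L libraries, the genes that rose had a median of 0.50 and those that fell a median of -0.22, against 0.00 over all genes. A change past those of both neighbouring steps was found for 23 of the genes that rose and 55 of those that fell, and for 2 and 15 when only the 3 groups of each pair of steps were fitted. Among all 7291 genes 40 were more positive in both differences and 76 more negative. Both differences hold the 1960 and 4900 µg/L libraries that chose the 375 and 447 genes, so these counts are a description. Rsub_12517 and Rsub_02324 were among the 23 and Rsub_10831 among the 55. Rsub_10831 differed by -1.75 ± 0.27 (SE) from the preceding and by -2.17 ± 0.28 (SE) from the following step (limma adjusted p = 1.49e-06 and 2.05e-07). Rsub_02324 differed by 2.71 ± 0.35 (SE) and 2.01 ± 0.37 (SE) (limma adjusted p = 2.88e-08 and 0.000286). For Rsub_12517 the differences were 1.56 ± 0.50 (SE) and 2.70 ± 0.53 (SE) (limma adjusted p = 0.0260 and 0.000847). These genes were named for their change between the same 1960 and 4900 µg/L libraries, so these p-values are not independent of that choice. They come from the fit of all 41 libraries, with a shared estimate of the spread.

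Calls were more frequent among genes with high values. Genes were split into terciles by their mean from control to 784 µg/L, a level that is not divided by transcript length. In the lowest tercile 83 genes rose and 54 fell, in the middle 98 and 113, and in the highest 194 and 280. The median log2 change was -0.01, -0.05 and -0.02, so the terciles did not shift as wholes. The median standard error went from 0.28 in the lowest to 0.19 in the highest tercile.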

How the data were processed

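The authors deposited 1 table of normalised values on a log scale, read as log2, with 1 column per library. Libraries were made with a QuantSeq 3′ mRNA kit, per the labels' protocols. The submitters' processing notes name STAR 2.7.10a, featureCounts 2.0.6, DESeq2, fastp 0.23.2, bcl2fastq 2.20.0 and SAMtools 1.15.1. Their settings, the genome build, gene filter and log transform were not given in the sources used here. A transform that shrinks weakly measured genes would understate their changes, and with another log base every fold would change. The table has no values for 4 of the 45 labelled libraries, which were not analysed here, and no read counts, so no depth or counting interval is given. No column was left without a sample, and no pair among the 10 libraries was a copy of another (highest correlation 0.949).

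The step was fitted with limma 3.58.1 in R 4.3.3 (lmFit, eBayes with intensity trend, two-sided, 8 residual and 15.5 prior degrees of freedom) on the 10 libraries alone, because the groups differ in spread. No pseudocount or filter was used. Comparisons with the control and between steps used all 41 libraries, and the further course used the 31 outside the step. The threshold was an adjusted p of 0.05 (Benjamini-Hochberg over 7291 genes). Named genes are the 2 highest and 2 lowest log2 changes among called genes whose groups did not overlap. Gene lists by product could not be applied. The fits were tested on simulated data. The comparison, lists and rules were chosen with earlier results of these data known. Figures used Python 3.11.15 and matplotlib 3.10.9.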

Additional observations from a re-analysis of the deposited data

Results flagged for a closer look

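In 5 of 61 groups of 5 values examined, 1 library lay far from the others of its group, where chance gives about 3.05. Rsub_12517 was at 2.67 in replicate B at 784 µg/L, against 2.25 to 2.31 in the other libraries. Rsub_10831 was at 7.22 in control replicate D, against 6.78 to 6.87, and at 6.41 in replicate A at 50 µg/L, against 6.79 to 6.94. Rsub_00004 was at 2.84 in replicate B at 125 µg/L, against 3.80 to 3.88, which is near its mean of 2.87 at 314 µg/L. Among the libraries left out in turn, replicate D at 1960 µg/L gave a median log2 change of 0.81 over the genes called higher, against 0.90 to 0.94 for the other 4.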

How the results depend on the processing

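The 4 named genes kept their direction and passed the threshold in all settings run, 20 each and 19 for Rsub_00004, which is below the filter on low values. With all 41 libraries in the fit the step had 1567 genes (703 higher, 864 lower), and at an adjusted p of 0.01 it had 412 (204 and 208). Only with the groups from 1960 µg/L up it had 634, with weights per group 837, centred 834, under quantile scaling 827, without the intensity trend 647 and with a robust fit 817. Among the 2731 genes left by a filter at a mean of 5, 632 were called (314 higher, 318 lower). Of these called genes, 171 had an absolute change of at least 1. The groups did not overlap in 412 of the 2731, and 1766 had the larger SD at 4900 µg/L. Without the filter these last 3 counts were 304, 645 and 4128 of 7291 genes, which are smaller shares of the genes tested. The replicate letters, whose meaning is not stated, were not used as pairs in the main fit. Same-letter deviations correlated between -0.00 and 0.21, above 0.1 for 1 of 5 letters. Only 1 of 5 correlated best with its own letter. With the replicate block 909 genes were called (428 higher, 481 lower). Leaving out 1 library gave 578 to 1134 called genes (251 to 538 higher, 318 to 596 lower) and 718 to 1049 without overlap, the highest without replicate A at 4900 µg/L. The count without overlap can only stay or grow when a library is left out, so its direction was fixed. Genes called without 1 library had medians between 12249 and 784 µg/L of 1.26 to 1.53 (higher) and -1.25 to -1.07 (lower), and between 30623 and 784 µg/L of -1.11 to -0.88 (lower). The difference from the following step passed in 208 to 503 genes (74 to 217 more positive, 127 to 286 more negative) without 1 library, the extremes without C and A of 12249 µg/L, and 74 without C of 4900 µg/L. It passed in 31 (5 and 26) with 3 groups fitted. Genes past both neighbouring steps then numbered 2 and 15. The cause of these shifts was not tested. The settings for genes past both steps, for place against the control and for 30623 against 12249 µg/L were added after seeing the data.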

Other observations

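Some genes varied widely among the 4900 µg/L libraries without being called in the step. An SD of at least 0.8 on the log2 scale, a limit set after the data had been seen, was reached by 161 genes at 4900 µg/L and by 45 at 1960 µg/L. Of the 161, 20 were called higher and 22 lower in the step, and 119 were not called. Of these 119, 51 were higher and 30 lower at 12249 than at 784 µg/L in the libraries outside the step, together 68.1%, against 52.7% of all genes. Of all 161, with the genes of the step included, 70.8% differed between 12249 and 784 µg/L. Of the 45 genes with such an SD at 1960 µg/L, also with the genes of the step included, 29 differed (64.4%). No test was made of these shares.

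The larger spread at 4900 µg/L was more common among the genes of the step than among all genes. It was seen in 284 of the 375 genes that rose (75.7%), in 326 of the 447 that fell (72.9%) and in 56.6% of all genes. The median SD of the genes that rose was 0.42 at 4900 and 0.27 at 1960 µg/L, and of those that fell 0.37 and 0.25. A gene is called more easily when its SD is small, so the called genes are not a neutral choice for this comparison.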
